A study of Mus musculus with 12 samples.

Results

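The genes described here encode the proteins that hold sister chromatids together in meiosis and those that protect or cut that hold: the kleisins Rec8 and Rad21, the coiled-coil subunits Smc1a, Smc1b and Smc3, the meiotic subunit Stag3, the shugoshins Sgol1 and Sgol2, the protease separase (Espl1) and its inhibitor securin (Pttg1). The 10 genes were chosen by name, and all 10 were found among the 23230 genes listed in the expression table. Of these, 9 reached 1 FPKM (a fragment count divided by transcript length and library size) in at least 1 library and were among the 11502 genes tested, while Rec8 was listed at 0 in all 12 libraries. Stag3 entered the test through a single Zar1/2-null library.

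The study compared wild-type (WT) oocytes with oocytes of mice carrying CRISPR/Cas9 germline mutations of both Zar1 and Zar2, on a C57BL6/ICR hybrid background. The Zar1 allele has a short deletion followed by an early stop codon, the Zar2 allele a deletion that shifts the reading frame, and both are present in every cell of the animal. Growing oocytes came from females of 13.5 days per the labels (the study's methods give a slightly younger age), fully grown germinal vesicle (GV) oocytes from females of 21 days at 44 h after PMSG, and ovulated oocytes, labelled MII, were taken 16 h after hCG with no age in the labels. Each genotype and stage had 2 libraries of 10 pooled oocytes, prepared by Smart-seq2 from oligo-dT primed cDNA. The ovulated pools were defined by time after hCG, and the meiotic stage of each oocyte in them is not given by the labels. The study describes null oocytes as halting within meiosis I, so that in the pools labelled MII genotype and meiotic stage cannot be told apart.

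The 2 libraries of a group are not stated to come from separate animals, so the p-values measure the spread between these pools, which may be technical. A lower value in a pool could mean fewer oocytes with the transcript, less of it in each oocyte or a shorter poly(A) tail for the oligo-dT primer to bind, and these cannot be told apart.

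In meiosis, cohesin is a ring made of an SMC1 and an SMC3 protein, a kleisin that closes the ring, and an SA subunit bound to the kleisin. REC8, SMC1B and STAG3 are the germline versions of RAD21, SMC1A and STAG1 or STAG2. At anaphase I separase cuts the kleisin along the chromosome arms, while shugoshin with the phosphatase PP2A keeps the kleisin at the centromere uncut until anaphase II. Mouse oocytes load cohesin on their chromosomes before birth, and securin and cyclin B1 hold separase inactive until the anaphase-promoting complex destroys them.

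The deposited FPKM had been multiplied by a factor per library from the share of ERCC spike-in RNA. The recovered factor was 1 in both WT growing libraries and lay between 0.225 and 0.862 in the other 10 libraries, lowest in the WT MII libraries. Replicates were alike, with a Pearson correlation across genes of at least 0.979 on log2 values. Zar1l, the symbol for Zar2, fell in the mutants at every stage, from 639 and 644 FPKM in WT growing oocytes to 17.5 and 13.2 FPKM in the null (log2 fold change -5.31, adjusted p = 2.556e-08). Zar1 RNA still read 407 and 460 FPKM in null growing oocytes against 603 and 725 FPKM in WT. At GV it read 136 and 203 FPKM against 439 and 423 FPKM (log2 fold change -1.37), and at MII 190 and 194 FPKM against 83.6 and 72.4 FPKM (1.29). The 10 oocyte markers summed to 4684 to 20601 FPKM per library. Of 13 granulosa and cumulus markers, 5 reached 1 FPKM, and Ptx3 was at 0 throughout. The sum of the 13 differed between the genotypes, at 32.2 and 28.6 FPKM in WT and 22.1 and 14.2 FPKM in null growing oocytes, 19.4 and 17.4 against 13.4 and 15.6 FPKM at GV, and 5.14 and 5.52 against 8.49 and 7.26 FPKM at MII, and its part in the members' values was not tested. In growing oocytes Cyp19a1 made up most of the WT sum, at 19.0 and 16.7 FPKM in WT and 7.72 and 2.53 FPKM in the null. Nr5a2 went the other way, at 5.97 and 5.86 FPKM in WT and 11.5 and 8.18 FPKM in the null. The sum thus does not follow the 13 markers as a set. The 6 immune and blood markers summed to at most 0.317 FPKM.

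The 3′ ends of members called between the genotypes at some stage are shown because the study asked how ZAR1 and ZAR2 act on the 3′UTRs of maternal mRNAs. Each window of 30 bases of the mm9 genome (NCBIM37, GENCODE M1 transcripts) is written 5′ to 3′ on the sense strand, with a polyadenylation signal (AATAAA or ATTAAA) or a cytoplasmic polyadenylation element (CPE, TTTTAT or TTTTAAT) in capitals.
Rad21, polyadenylation signal, chr15:51794157-51794186, minus strand: tataacttttctAATAAAagttgtgtttca
Smc1a, polyadenylation signal, chrX:148497206-148497235, plus strand: tagggtttatctAATAAAtagagcctgagg
Sgol2, CPE, chr1:58082669-58082698, plus strand: acttatgtatcaTTTTATcattaattctct
Sgol2, polyadenylation signal, chr1:58082708-58082737, plus strand: ttttaaatacaaATTAAAaaaagttttaaa
Espl1, polyadenylation signal, chr15:102154755-102154784, plus strand: taatgtgaccttAATAAAgatattccaagc
Pttg1, polyadenylation signal, chr11:43233773-43233802, minus strand: gtatgttgtattAATAAAgcatttgtgcat

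Within the last 100 bases of the annotated transcript, 8 of the 10 genes held one of the signal hexamers and Smc1b and Smc3, which are therefore not shown, held neither, against 79.6% of 10419 tested genes with a coding transcript and a 3′UTR. Sgol2 was the 1 gene of the 10 with a CPE in that window, against 19.3% of the tested genes. The Sgol2 CPE began 63 bases before the transcript end, and its signal 24 bases before it. Over the whole 3′UTR, CPE letters occurred 5 times in Smc3 (1055 bases), 4 times in Sgol2 (1100 bases), 3 times in Rad21 (1451 bases), 2 times in Sgol1 (1814 bases) and once in Smc1a (885 bases). They were absent from the 3′UTRs of Rec8 (34 bases), Stag3 (349 bases), Smc1b (271 bases), Espl1 (141 bases) and Pttg1 (79 bases). These matches are letters in a window, and binding was not measured here.

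Rad21, the kleisin of mitotic cohesin, differed most between the genotypes among the 9 tested genes at both the GV and the MII stage, in the deposited values and under both other scalings. At the GV stage 5 of the 9 genes were lower in Zar1/2-null oocytes by limma at an adjusted p under 0.05, where 40.6% of all tested genes were, and none was higher, where 2.83% were. At the MII stage 4 of 9 were lower against 10.3% of all genes, and 1 was higher against 21.5%. In growing oocytes 2 of 9 were lower against 24.4% of all genes, and none was higher against 10.6%. The median log2 fold change of the 9 genes was -0.30 in growing oocytes, -0.66 at GV and -0.17 at MII, beside -0.16, -0.38 and 0.06 over all tested genes. By the study's rule of a 3-fold change between group means, Rad21 was the single member to pass at GV, where 4.2% of all genes were lower by that much, and at MII, where 1.32% were. No member passed it upward at these stages (0.461% and 7.49% of all genes) or in either direction in growing oocytes (3.54% lower and 0.982% higher).

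**Figure D1:**
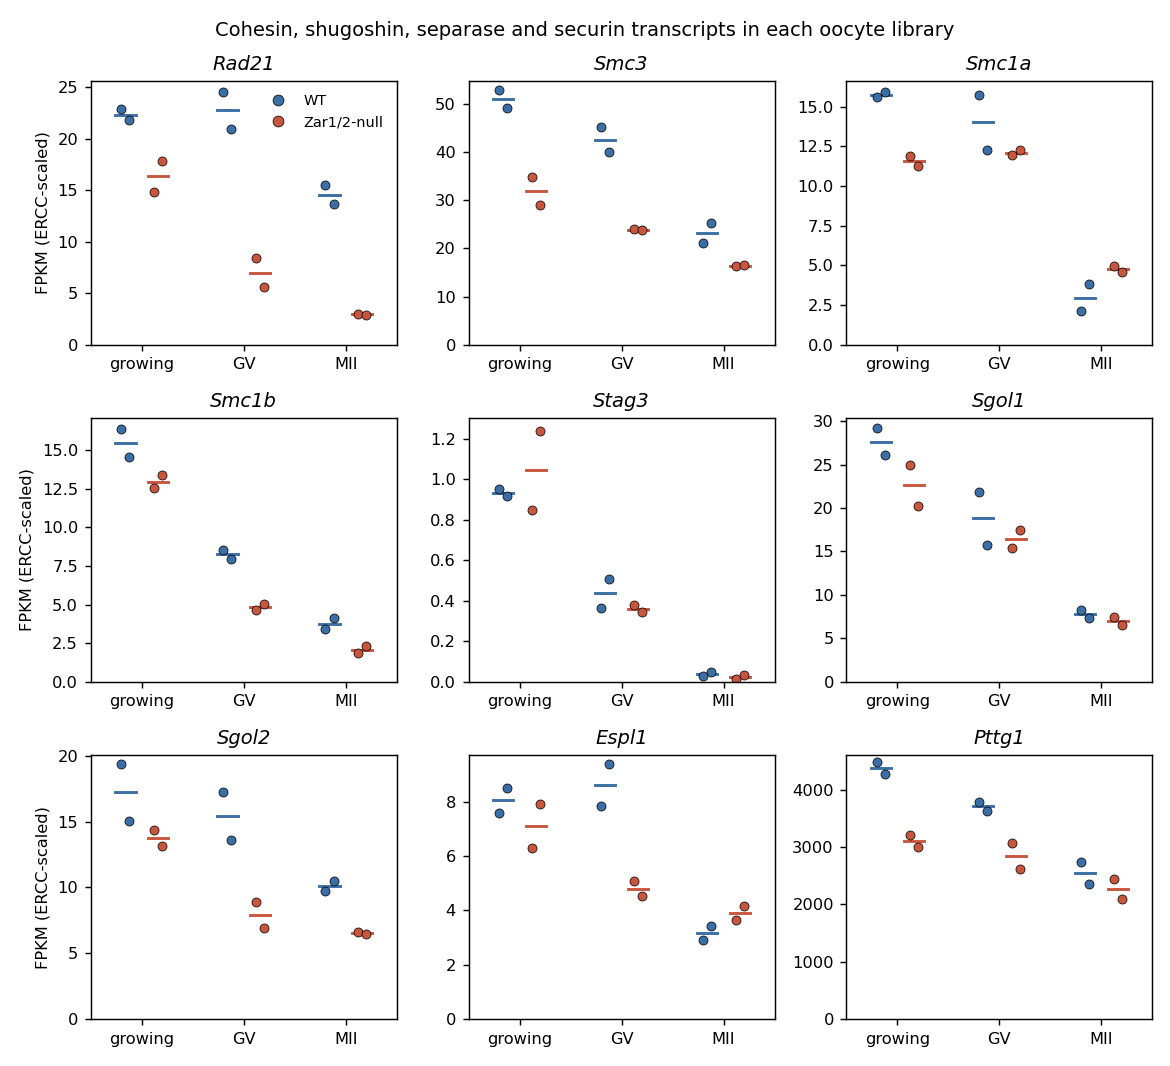
FPKM (ERCC-scaled, linear axes from 0) of the 9 genes above 1 FPKM in each library by stage, WT in blue and Zar1/2-null in red, with a bar at the mean of each pair of libraries. Rad21 falls from 24.5 and 21.0 FPKM in WT to 8.42 and 5.59 FPKM in null GV oocytes, and at MII both null libraries lie near 3 FPKM, while Sgol1 and Stag3 overlap at all 3 stages except for Sgol1 in growing oocytes.

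Rec8, the meiosis-specific kleisin (chr14:56236874-56244232), was listed at 0 in every library, as were 4298 of the 23230 genes (18.5%). An exact 0 in this kind of table can be a failed estimate, so nothing is said of Rec8 beyond its listing. No ratio of Rec8 to Rad21 could be formed.

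Rad21 (chr15:51794151-51823306) read 22.9 and 21.8 FPKM in the WT growing libraries and 14.8 and 17.9 FPKM in the null growing libraries. These groups did not overlap, but the difference did not pass (log2 fold change -0.43, SE 0.18, adjusted p = 0.0856). In GV oocytes Rad21 read 24.5 and 21.0 FPKM in WT and 8.42 and 5.59 FPKM in the null. At MII it read 15.5 and 13.6 FPKM in WT and 3.01 and 2.90 FPKM in the null. In the deposited values both null libraries thus lay below both WT libraries at all 3 stages. The WT mean was 3.25 times the null mean at GV (log2 fold change -1.59, SE 0.18, adjusted p = 9.32e-05) and 4.92 times at MII (log2 fold change -1.97, SE 0.18, adjusted p = 6.92e-06). With each of the 12 libraries left out in turn, the log2 fold change lay between -1.85 and -1.33 at GV and between -2.06 and -1.89 at MII. Only the fits without a library of the same stage could move it.

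Before the ERCC factor was applied, Rad21 read 29.3 and 30.1 FPKM in WT and 15.8 and 9.58 FPKM in null GV oocytes, and 69.0 and 59.8 FPKM in WT and 10.7 and 11.5 FPKM in null MII oocytes. The 2 genotypes again did not overlap at either stage. Rad21 stayed lower in the null without the factor (log2 fold change -1.20, adjusted p = 0.00245 at GV and -2.43 at MII) and with libraries set to a common median (-1.01, adjusted p = 0.00544 at GV and -2.53 at MII). In growing oocytes the limma difference was -0.16 (adjusted p = 0.606) without the factor and -0.25 (adjusted p = 0.392) after median scaling. Without the factor the growing libraries overlapped, at 22.9 and 21.8 FPKM in WT and 17.2 and 23.0 FPKM in the null. With a library left out, the deposited growing difference ran from -0.56 to -0.31. The 3-fold rule was less stable at GV. The ratio of means there was 2.34 without the factor, 2.14 after median scaling, 2.997 without WT GV replicate 1 and 2.70 without Zar1/2-null GV replicate 2. In growing oocytes, leaving out Zar1/2-null GV replicate 1 or 2 brought the Rad21 adjusted p to 0.0359 or 0.036.

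The difference in Rad21 between the genotypes was larger at GV than in growing oocytes. The interaction term, which was chosen after the data were seen, was -1.15 on the log2 scale (SE 0.26, adjusted p = 0.0171), and Rad21 was the 1 member lower in this comparison, where 11.3% of all genes were (2.58% were higher, and no member). The call was lost without the ERCC factor (-1.04, adjusted p = 0.0637), after median scaling (-0.76, adjusted p = 0.164) and in a fit of these 4 groups alone. It was also lost without WT growing replicate 2 (adjusted p = 0.0518), WT GV replicate 1 (0.0631) or Zar1/2-null growing replicate 2 (0.0655).

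Smc3, the SMC subunit shared by mitotic and meiotic rings (chr19:53674886-53720323), was the cohesin gene with the highest FPKM, a scale that is per length. It read 52.9 and 49.2 FPKM in WT and 34.8 and 29.1 FPKM in null growing oocytes. At GV it read 45.2 and 39.9 FPKM in WT and 23.9 and 23.9 FPKM in the null. At MII the values were 21.1 and 25.4 FPKM in WT and 16.3 and 16.6 FPKM in the null. Smc3 was therefore below WT in every null library of its stage, and it passed at all 3 stages (log2 fold change -0.66, -0.80 and -0.47, each with SE 0.15, adjusted p = 0.00595, 0.00173 and 0.0339). Without the ERCC factor the differences were -0.39 (adjusted p = 0.0565) in growing oocytes, -0.37 (0.0802) at GV and -0.72 (0.00103) at MII, so that of these 3 calls the MII call was kept. The MII call was lost without WT MII replicate 2 (adjusted p = 0.212) or without Zar1/2-null MII replicate 1 (0.13) or 2 (0.106), and the growing call without Zar1/2-null growing replicate 2 (0.0596).

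Smc1a, the SMC1 protein of somatic cohesin (chrX:148450971-148497237), read 15.6 and 15.9 FPKM in WT and 11.9 and 11.2 FPKM in null growing oocytes. At GV it read 15.8 and 12.3 FPKM in WT and 11.9 and 12.3 FPKM in the null, where the groups all but touch. The MII libraries read 2.12 and 3.80 FPKM in WT and 4.93 and 4.59 FPKM in the null. Smc1a was the 1 member higher in null MII oocytes (log2 fold change 0.57, SE 0.19, adjusted p = 0.041), and it did not pass in growing oocytes (-0.42, adjusted p = 0.117) or at GV (-0.19, adjusted p = 0.44, and above 0 under the other scalings). The MII call was fragile. It was lost without the ERCC factor (0.47, adjusted p = 0.0807), after median scaling (0.35, adjusted p = 0.117) and in 9 of the 12 fits that left out a library. It was kept without WT GV replicate 1 or 2 or WT MII replicate 2, and in the other 9 fits the adjusted p ran from 0.05 to 0.352, with a log2 fold change of 0.26 without WT MII replicate 1.

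Smc1b, the germline SMC1 protein (chr15:84895121-84962387), read 16.4 and 14.6 FPKM in WT and 12.5 and 13.4 FPKM in null growing oocytes, a difference that did not pass (log2 fold change -0.24, adjusted p = 0.218). At GV it read 8.57 and 7.97 FPKM in WT and 4.68 and 5.03 FPKM in the null. In MII oocytes the values were 3.41 and 4.13 FPKM in WT and 1.87 and 2.30 FPKM in the null. In both later stages every null library was below every WT library, and Smc1b passed at GV (log2 fold change -0.66, SE 0.14, adjusted p = 0.00343) and at MII (-0.63, SE 0.14, adjusted p = 0.00498). The GV difference shrank to -0.29 (adjusted p = 0.289) without the ERCC factor, whereas the MII difference still passed there (adjusted p = 0.00064) and stood at -1.09 after median scaling. Without Zar1/2-null MII replicate 1 the MII adjusted p was 0.0596.

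Stag3, the germline SA subunit (chr5:138721468-138753621), was near the detection limit of the table. It read 0.951 and 0.915 FPKM in WT and 0.847 and 1.24 FPKM in null growing oocytes, 0.366 and 0.509 FPKM in WT and 0.380 and 0.342 FPKM in null GV oocytes, and at most 0.0474 FPKM in any MII library. No genotype difference passed at any stage (log2 fold changes of 0.07, -0.08 and -0.02). Since 1 FPKM was added before taking logs, the scale could hardly show one at these levels.

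Sgol1, a shugoshin (chr17:53814111-53828658), read 29.2 and 26.0 FPKM in WT and 24.9 and 20.2 FPKM in null growing oocytes. At GV it read 21.9 and 15.7 FPKM in WT and 15.4 and 17.4 FPKM in the null. The MII values were 8.23 and 7.38 FPKM in WT and 7.50 and 6.52 FPKM in the null. The groups overlapped at GV and MII, and no difference passed in the deposited values (log2 fold changes -0.28, -0.17 and -0.14, adjusted p = 0.245, 0.447 and 0.651). The GV value changed sign under the other scalings (0.26 and 0.38), and the MII difference passed there (-0.38, adjusted p = 0.0393 without the factor and -0.50, adjusted p = 0.0265 after median scaling).

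Sgol2, the shugoshin known as the main protector of centromeric cohesion in mouse oocytes (chr1:58052815-58082743), read 19.4 and 15.1 FPKM in WT and 14.4 and 13.1 FPKM in null growing oocytes, a difference that did not pass (log2 fold change -0.30, adjusted p = 0.209). At GV it read 17.3 and 13.6 FPKM in WT and 8.87 and 6.89 FPKM in the null. At MII it read 9.70 and 10.5 FPKM in WT and 6.60 and 6.46 FPKM in the null. In these deposited values null libraries were below WT libraries at all 3 stages, and Sgol2 passed at GV (log2 fold change -0.89, SE 0.17, adjusted p = 0.00219) and at MII (-0.56, SE 0.17, adjusted p = 0.029). Without the ERCC factor the GV difference was -0.49 (adjusted p = 0.0734) and the MII difference -0.84 (adjusted p = 0.00202). The MII call was lost when any of the 4 MII libraries was left out (adjusted p = 0.0767 without WT replicate 1, 0.136 without WT replicate 2, 0.104 without null replicate 1 and 0.115 without null replicate 2).

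Sgol2 shares 2455 of its 4939 exonic bases with Kctd18 on the opposite strand, and Smart-seq2 does not mark the strand, so reads of these bases cannot be told apart. Kctd18 was listed at 3.28 and 3.03 FPKM in WT GV oocytes and at 1.19 and 1.09 FPKM in null GV oocytes. At MII it read 1.34 and 1.55 FPKM in WT and 1.04 and 1.07 FPKM in the null. The level of Kctd18 was thus lower in the null together with Sgol2, and its part in the Sgol2 values was not tested.

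Espl1, separase (chr15:102126724-102154787), read 7.59 and 8.54 FPKM in WT and 6.31 and 7.93 FPKM in null growing oocytes, which overlapped (log2 fold change -0.16, adjusted p = 0.441). In GV oocytes it read 7.85 and 9.40 FPKM in WT and 5.09 and 4.52 FPKM in the null. The MII libraries had 2.92 and 3.42 FPKM in WT and 3.63 and 4.16 FPKM in the null. Separase RNA was lower in the null at GV (log2 fold change -0.73, SE 0.15, adjusted p = 0.00357), but not after the ERCC factor was removed (-0.35, adjusted p = 0.287). At MII both null libraries lay above both WT libraries, and the difference did not pass (0.23, adjusted p = 0.304, and -0.06 after median scaling).

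Pttg1, securin (chr11:43233752-43239753), was by far the most abundant of the 10 transcripts per length. It read 4483 and 4283 FPKM in WT and 3211 and 2999.9 FPKM in null growing oocytes, 3795 and 3625 FPKM in WT and 3072 and 2619.8 FPKM in null GV oocytes, and 2733 and 2361 FPKM in WT and 2439 and 2091 FPKM in null MII oocytes. The genotypes were apart in growing and GV oocytes and overlapped at MII. Pttg1 passed in growing oocytes (log2 fold change -0.50, SE 0.16, adjusted p = 0.0312), not at GV (-0.39, adjusted p = 0.0688) and not at MII (-0.17, adjusted p = 0.491). The growing call was lost without the ERCC factor (-0.21, adjusted p = 0.298) and without WT growing replicate 1 (adjusted p = 0.16) or 2 (0.106) or Zar1/2-null growing replicate 1 (0.0616) or 2 (0.15).

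Counted by overlap alone, both null libraries were below both WT libraries for 7 of the 10 genes in growing oocytes, where this held for 47.4% of all tested genes, for 7 at GV (63.6% of all genes) and for 4 at MII (27.8%). Both null libraries were above WT for no member in growing oocytes (22.4% of all genes) or at GV (6.79%) and for Smc1a and Espl1 at MII (43.5%). Without the ERCC factor those below WT were Smc1a, Smc3 and Pttg1 in growing oocytes, and Rad21, Smc1b, Smc3 and Sgol2 at GV. At MII they were Rad21, Smc1b, Smc3, Sgol1, Sgol2 and Pttg1. Smc1a and Sgol1 lay above WT at GV, and Smc1a at MII. The share of all genes was not computed for values without the factor, so these lists cannot be read as a result about the members.

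The median log2 fold change of all genes at GV was -0.38 in the deposited values, -0.03 without the ERCC factor and 0.07 after median scaling. Relative to that shift, Rad21 was the member still lower at GV under both scalings (1 of 9, where 13.5% and 9.32% of all genes were lower). At MII, Rad21, Smc1b, Smc3 and Sgol2 were lower under all 3 scalings, and Sgol1 and Pttg1 joined them under the other 2 (6 lower and 0 higher, where 23.4% and 30.1% of all genes were lower and 24.6% and 23.6% higher). In growing oocytes no member passed without the factor (0 lower, 12.3% of all genes), and Smc3 passed after median scaling (-0.48, adjusted p = 0.0262).

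**Figure D2:**
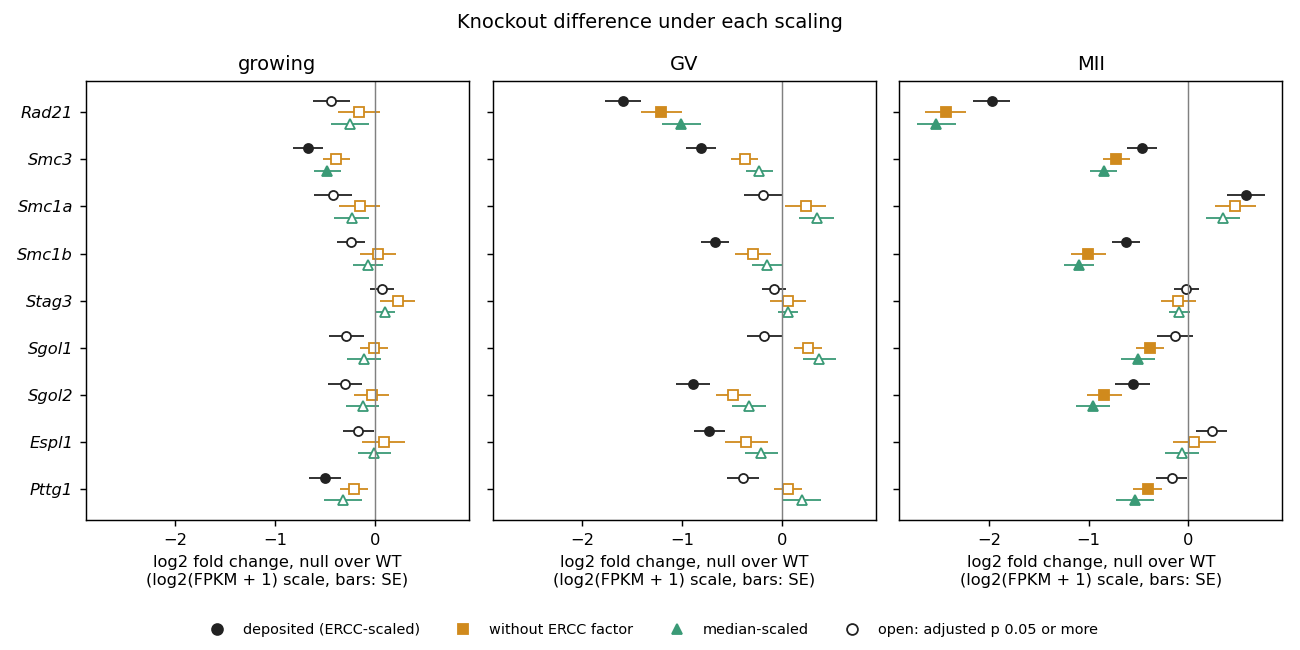
Log2 fold change of Zar1/2-null over WT on the log2(FPKM + 1) scale for the 9 genes at each stage, with the deposited values in black, values without the ERCC factor in orange and median-scaled values in green. Bars are standard errors of the limma fit and filled symbols have an adjusted p under 0.05. Rad21 lies left of 0 and is filled under all 3 scalings at GV and MII, while Smc3, Smc1b, Sgol2 and Espl1 are filled at GV in black only.

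In WT oocytes growing to the GV stage, 3 of the 9 genes were lower by limma, where 28.7% of all genes were, and none was higher (2.77%). Smc1b fell by 0.83 on the log2 scale (SE 0.14, adjusted p = 0.00273), from 16.4 and 14.6 FPKM to 8.57 and 7.97 FPKM. Sgol1 changed by -0.55 (SE 0.18, adjusted p = 0.0392) and Stag3 by -0.43 (SE 0.12, adjusted p = 0.0237). The level of Rad21 differed by 0.02 (adjusted p = 0.939) over this step in WT, while the null means were 16.4 FPKM in growing and 7.01 FPKM in GV oocytes. No member passed this comparison without the ERCC factor or after median scaling, where Smc1b differed by -0.48 (adjusted p = 0.12) and -0.47 (adjusted p = 0.0982). With a library left out, the Stag3 call was lost in 3 of 12 fits and the Sgol1 call in 7. For Stag3 these were without WT growing replicate 1 (adjusted p = 0.0632) or 2 (0.0675) or WT GV replicate 1 (0.0699). For Sgol1 they were without WT growing replicate 1 (0.168) or 2 (0.0994), WT GV replicate 2 (0.279), WT MII replicate 1 (0.0518) or 2 (0.0519) or Zar1/2-null MII replicate 1 (0.0514) or 2 (0.0515).

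From the GV to the MII stage in WT, all 9 tested genes were lower in the deposited values, as were 93.4% of all genes, but 6 were higher and 2 lower without the ERCC factor, and 7 higher and none lower after median scaling. Of all genes, 19.7% were higher and 47.6% lower without the factor, and 41.8% and 31.3% after median scaling. The unscaled value was 4.45 and 4.39 times the deposited value in these MII libraries, and the direction of these changes depended on the spike-in. The median of all genes was -1.28 in the deposited values, -0.43 without the factor and 0.12 after median scaling, and the members' median was -0.85, 0.57 and 1.38. Relative to all genes, the members' median was thus higher under each scaling.

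Smc1a had the largest decrease on the log2(FPKM + 1) scale over maturation in the deposited values (log2 fold change -1.95, SE 0.19, adjusted p = 1.85e-06), and without the ERCC factor it was lower by 0.50 (-0.50, adjusted p = 0.0483) while after median scaling it read 0.37. Espl1 (-1.20), Sgol1 (-1.15), Smc1b (-0.96) and Smc3 (-0.85) followed in the deposited values, and Rad21 (-0.61), Sgol2 (-0.56), Pttg1 (-0.55) and Stag3 (-0.47) had the smallest differences on this scale. The scale understates low genes: the Stag3 mean went from 0.438 FPKM at GV to 0.0373 FPKM at MII, both under the 1 FPKM that was added. All of these but Stag3 were above 0 under both other scalings. In the deposited values the Rad21 call was lost without WT GV replicate 1 (adjusted p = 0.058) or WT MII replicate 2 (0.051), the Sgol2 call without WT GV replicate 1 (0.0863) or WT MII replicate 1 (0.0509), and the Pttg1 call without WT MII replicate 2 (0.0566). Pttg1, for example, was higher by 1.21 without the factor and by 2.16 after median scaling. By the study's rule for transcripts cleared in WT maturation, a mean at GV over 10 times that at MII, no member passed, where 15.7% of all genes did. Among members with means above the floor of 1 FPKM, the nearest was Smc1a, whose GV mean was 4.74 times its MII mean. Stag3 lay under that floor at both stages and could not pass.

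The genotypes were also compared in how far each gene changed from GV to MII. In the deposited values 2 members had a higher change in the null, where 33.9% of all genes did, and none a lower one, where 0.643% did. Espl1 went from a mean of 8.62 to 3.17 FPKM in WT and from 4.80 to 3.90 FPKM in the null (interaction 0.96 on the log2 scale, SE 0.22, adjusted p = 0.0068). Smc1a went from 14.0 to 2.96 FPKM in WT and from 12.1 to 4.76 FPKM in the null (0.76, SE 0.27, adjusted p = 0.0499). Neither passed under the other scalings, with 0.41 (adjusted p = 0.395) and 0.14 (adjusted p = 0.69) for Espl1 and 0.23 (adjusted p = 0.637) and -0.0050 (adjusted p = 0.993) for Smc1a. Members with a lower change in the null numbered 2 without the factor, where 6.46% of all genes had one, and 4 after median scaling (15.7%). Rad21 was among them both times, at -1.23 (adjusted p = 0.0114) and -1.52 (adjusted p = 0.00192), beside -0.38 (adjusted p = 0.256) in the deposited values and -0.64 (adjusted p = 0.0488) there without Zar1/2-null GV replicate 2. The Smc1a call in the deposited values was kept without WT GV replicate 2 or WT MII replicate 2 and lost in the other 10 fits that left out a library, where its adjusted p ran from 0.0642 to 0.18.

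Ratios of partner genes within a library do not depend on the library's factor. Of 5 such ratios 4 could be formed, and they were tested with an exact two-sided permutation of the genotypes within each stage (smallest possible p = 0.00926). The ratio of Sgol2 to Sgol1 was 0.664 and 0.579 in WT and 0.576 and 0.649 in null growing oocytes, 0.790 and 0.863 against 0.578 and 0.396 at GV, and 1.18 and 1.42 against 0.879 and 0.991 at MII. The 2 genotypes overlapped in growing oocytes and were apart at GV and MII. Averaged over the stages the ratio was lower in the null by 0.43 on the log2 scale (-0.43, lower at 3 of 3 stages, exact permutation p = 0.0185), which did not pass after adjustment over the 4 ratios (p = 0.0741).

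Germline and somatic SMC1 were set against each other in the same way. The ratio of Smc1b to Smc1a was 1.05 and 0.915 in WT and 1.05 and 1.19 in null growing oocytes, with the null above WT. It was 0.544 and 0.649 in WT and 0.392 and 0.410 in the null at GV, and 1.61 and 1.09 in WT and 0.379 and 0.502 in the null at MII, with the null below WT at both stages. The mean difference was -0.66 on the log2 scale (exact permutation p = 0.0556, adjusted p = 0.111).

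The ratio of securin to separase, Pttg1 to Espl1, was 591 and 502 in WT and 509 and 378 in null growing oocytes, which overlapped. It was 484 and 386 in WT and 603 and 580 in the null at GV, with the null above WT, and 935 and 691 in WT and 671 and 502 in the null at MII, with the null below. Averaged over stages that went opposite ways, it differed by -0.11 (exact permutation p = 0.574, adjusted p = 0.63), and the difference between the stages was not tested. That of Stag3 to the sum of Stag1 and Stag2, its somatic counterparts, differed by -0.19 (exact permutation p = 0.63, adjusted p = 0.63), with 0.38 at GV, where the genotypes overlapped, and -1.06 at MII, where Stag3 was under 0.05 FPKM in each library. A p above the threshold does not show that these ratios were alike. The Rad21 to Smc3 ratio was added after the values were seen and carries no test. It was 0.433 and 0.443 in WT and 0.426 and 0.615 in null growing oocytes, 0.543 and 0.526 against 0.352 and 0.234 at GV, and 0.736 and 0.537 against 0.185 and 0.175 at MII. The null lay below WT at GV and MII and overlapped it in growing oocytes.

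**Figure D3:**
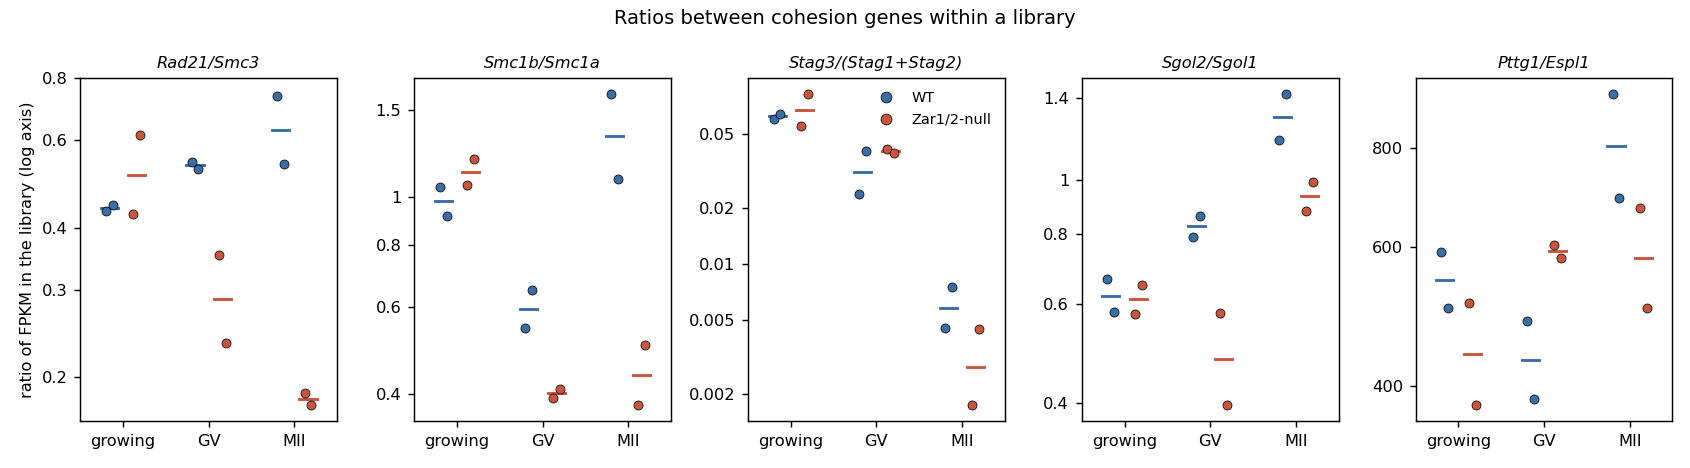
Ratios of FPKM between partner genes within each library, on log axes, by stage for WT (blue) and Zar1/2-null (red), with a bar at the geometric mean of each pair of libraries. The Rad21 to Smc3 ratio at MII is 0.736 and 0.537 in WT and 0.185 and 0.175 in the null, and the Sgol2 to Sgol1 and Smc1b to Smc1a ratios of the null lie below WT at GV and MII.

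A fixed list of 33 other genes of the pathway, all of which passed the filter, was counted in the same fit. In growing oocytes, without the ERCC factor 4 were higher and 0 lower in the null (14.9% and 12.3% of all genes). After median scaling 3 were higher and 1 lower (10.7% and 12.8%). In the deposited values 3 were higher and 3 lower, beside 10.6% and 24.4% of all genes. The higher ones were Ppp2cb, a catalytic subunit of PP2A (log2 fold change 1.23, adjusted p = 0.000156), Ppp2r5e, a regulatory subunit of PP2A (0.67, adjusted p = 0.00748), and Fzr1, the CDH1 activator of the anaphase-promoting complex (0.82, adjusted p = 0.00897). Those lower were Esco1, an acetyltransferase for SMC3 (-0.65, adjusted p = 0.00631), Ccnb1, cyclin B1 (-0.66, adjusted p = 0.033), and Wapal, which releases cohesin from chromatin (-0.48, adjusted p = 0.0455).

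At GV 19 of the 33 genes were lower in the null and none higher, beside 40.6% and 2.83% of all genes. Without the ERCC factor 2 were lower and none higher, where 13.5% and 7.19% of all genes were. After median scaling none was lower and 1 higher (9.32% and 9.73% of all genes). By role, the 19 genes of the deposited values held all 4 of cohesin release and retention and all 3 of SMC3 acetylation. They also held 2 of 3 other cohesin subunits, 1 of 2 loaders and 5 of 10 PP2A genes. Of the kinases and centromere recruiters 3 of 7 were among them, and of the separase control genes 1 of 4. The smallest adjusted p were those of Pds5b, a regulator bound to the ring (log2 fold change -0.81, adjusted p = 0.000503), Ppp2r1b, a scaffold subunit of PP2A (-0.88, adjusted p = 0.00146), and Stag2, a somatic SA subunit (-0.66, adjusted p = 0.00531). Pds5b read 3.15 and 2.76 FPKM in WT and 1.38 and 1.12 FPKM in null GV oocytes.

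At MII 9 of the 33 genes were higher and 7 lower in the null, beside 21.5% and 10.3% of all genes. Without the ERCC factor 9 were higher and 11 lower (24.6% and 23.4% of all genes). After median scaling 9 were higher and 12 lower (23.6% and 30.1%). Fzr1 read 0.694 and 1.17 FPKM in WT and 8.43 and 9.77 FPKM in the null (log2 fold change 2.39, adjusted p = 3.25e-06), and every null library lay above WT. Of the 4 genes that set separase free or hold it, 3 were higher, namely Fzr1, Cdk1 (1.08, adjusted p = 0.00228) and Cdc20, the other activator of the anaphase-promoting complex (1.05, adjusted p = 0.00493). Ppp2r5a, a PP2A subunit of the kind that binds shugoshin, was also higher (1.00, adjusted p = 0.00018).

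Lower genes at MII included Esco1 (-0.66, adjusted p = 0.00524), Cdca5, the sororin that keeps cohesin on chromatin (-0.91, adjusted p = 0.00527), and Set, an inhibitor of PP2A (-0.57, adjusted p = 0.00786). Cdca5 read 28.0 and 35.3 FPKM in WT and 15.7 and 17.0 FPKM in null MII oocytes, which did not overlap. In the GV to MII change, 11 of the 33 were higher in the null and none lower, beside 33.9% and 0.643% of all genes. Fzr1 was first (2.45, limma adjusted p = 7.23e-05). Without the factor 3 were higher and 4 lower (15.1% and 6.46% of all genes). After median scaling 3 were higher and 10 lower (13.5% and 15.7%). In the change from growing to GV, a comparison chosen after the data were seen, 3 of the 33 were lower in the null, beside 11.3% of all genes. Without the factor 1 was lower, and 1 after median scaling, beside 3.72% and 1.67% of all genes. In the deposited values these were Ppp2cb (-1.52, adjusted p = 0.00223), Ppp2r5e (-1.16, adjusted p = 0.00888) and Pds5b (-0.72, adjusted p = 0.0232). In WT oocytes 12 of the 33 were lower and 1 higher at GV than in growing oocytes, beside 28.7% and 2.77% of all genes. Without the factor 0 were lower and 1 higher (3.23% and 3.66% of all genes). After median scaling 0 were lower and 0 higher (2.64% and 2%). All 33 were lower at MII than at GV in the deposited values, as were 93.4% of all genes. Without the factor 16 were lower and 9 higher (47.6% and 19.7% of all genes). After median scaling 9 were lower and 17 higher (31.3% and 41.8%).

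**Figure D4:**
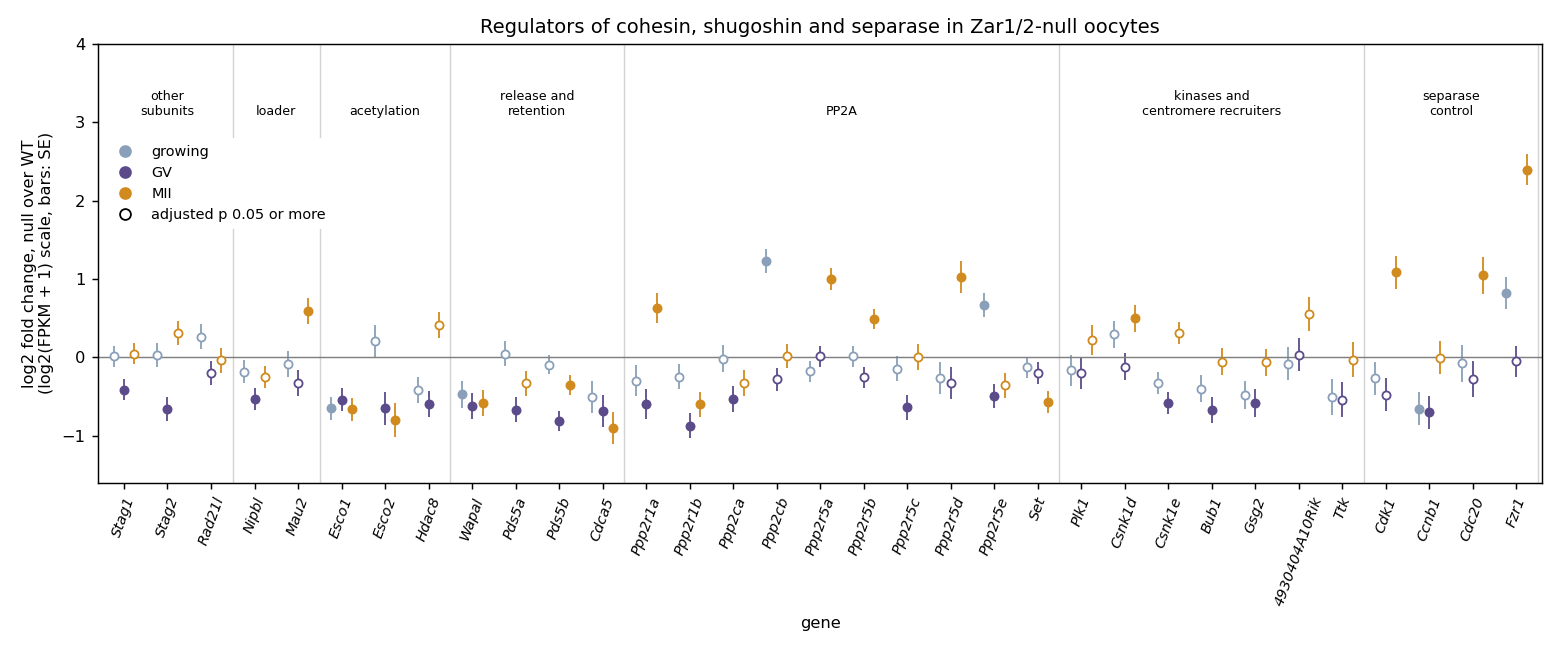
Log2 fold change of Zar1/2-null over WT (log2(FPKM + 1) scale, deposited values, bars are standard errors) for 33 genes that regulate cohesin, shugoshin or separase, ordered by role, in growing, GV and MII oocytes. Filled points have an adjusted p under 0.05. At GV 19 are lower in these values (40.6% of all genes) and 2 without the ERCC factor (13.5%). At MII Fzr1 stands at 2.39.

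For each member, the gene outside the set with the most similar profile was sought among 4320 genes averaging 10 FPKM or more, by Pearson correlation of log2(FPKM + 1) over the 12 libraries, which share the scaling factors. Rad21 was nearest to Rbm27 (r = 0.984), and 20 genes reached 0.95 with it. Sgol1 was nearest to Osgepl1 (r = 0.995), and 1117 genes reached 0.95 with it. Smc3 was nearest to Mudeng (0.989), Smc1b to Hbp1 (0.991), Smc1a to Rpp21 (0.989), Sgol2 to Trp53inp1 (0.983), Espl1 to Fam122a (0.975), Pttg1 to Actr10 (0.978) and Stag3 to Copa (0.986). The number of genes at 0.95 or more was also low for Espl1 (26), Pttg1 (33) and Sgol2 (40). These counts depended on the scaling. Without the ERCC factor none of these pairs stayed first, the nearest gene to Sgol1 reached 0.908, and the nearest to Rad21 was Msh6 (0.962).

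The order of the levels across the 6 groups differed between members. Rad21 was highest in WT GV (mean 22.8 FPKM) and WT growing oocytes (22.4 FPKM), whose libraries overlapped, and the order went on with null growing (16.4 FPKM), WT MII (14.6 FPKM), null GV (7.01 FPKM) and null MII oocytes (2.96 FPKM). Of these neighbours null growing and WT MII also overlapped, and the others were apart. For Sgol1 the order followed the stage, from 27.6 FPKM in WT growing to 7.80 FPKM in WT MII and 7.01 FPKM in null MII oocytes. For Smc1a, null MII oocytes (4.76 FPKM) ranked above WT MII oocytes (2.96 FPKM), and so did they for Espl1 (3.90 and 3.17 FPKM).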

How the data were processed

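The authors deposited FPKM from Cufflinks 2.2.1 with UCSC gene models. Its input was Tophat 2.1.1 alignments to mm9 with a single location per read, which drops reads shared by near-identical copies. Per the paper, FPKM were multiplied by the ERCC percentage of WT growing oocytes over that of the library. The paper lists different ERCC percentages for the 2 WT growing libraries, yet both had a recovered factor of 1. It lists the same percentage for both WT GV libraries, whose factors were 0.836 and 0.697. A single reference for all 12 libraries does not give this, and replicates 1 and 2 may stand on different spike-in references. Counts are not given, so the counting error of a value is unknown. Each factor was recovered as the number that returns the values to 6 significant digits. Genes with at least 1 FPKM in 1 library were kept, and log2(FPKM + 1) of all 12 libraries was modelled by group in limma 3.58.1 (R 4.3.3), eBayes with an intensity trend, and Benjamini-Hochberg adjustment over 11502 genes. A fold on this scale understates changes of low genes. For the 3-fold and 10-fold rules, group means under 1 FPKM were set to 1. An exact permutation of 2 against 2 libraries cannot go below p = 0.333, so single genes were tested in limma. In simulated data 200 genes of at least 5 FPKM in WT GV oocytes were changed 3-fold at GV, among 11502 with no other GV difference. Of the 200, 93.5% were recovered (187 in the right direction), and 19 unchanged genes were called. The real GV comparison called 4666 genes lower and 325 higher, so the simulation had far fewer changes than these data. The recovery of genes under 5 FPKM was not simulated. Samples were grouped by the labels. The members, gene lists and tests were chosen with earlier results of these data known. Genes named are the targets, the members, up to 3 pathway genes per direction and comparison with the smallest adjusted p, partners in ratios and nearest profiles. Cdc20, Kctd18 and Msh6 were named after their values were seen. Numbers of bases in transcripts and positions came from GENCODE M1 on NCBIM37 (mm9). Alternatives left out the ERCC factor, scaled libraries to a common median, used a pseudocount of 0.1 FPKM, no filter or a mean of at least 5 FPKM, fitted the compared groups alone, dropped the trend, added a replicate block and left out each library.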

Additional observations from a re-analysis of the deposited data

Results flagged for a closer look

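The genotype difference of 3 transcripts depended on the stage by an interaction term of the limma fit. Espl1 (separase) differed in its GV to MII change by 0.96 on the log2 scale (null minus WT, adjusted p = 0.0068), where 33.9% of all genes had a higher change in the null. In the same deposited values its null libraries lay below WT at GV, as for 63.6% of all genes, and above WT at MII, as for 43.5%. Without the ERCC factor the Espl1 groups overlapped at both stages. Smc1a differed by 0.76 (adjusted p = 0.0499) in its GV to MII change. The interaction for Smc1a was lost in 10 of the 12 fits without a library (adjusted p from 0.0642 to 0.18, all but those without WT GV replicate 2 or WT MII replicate 2), and both were lost without the ERCC factor. Rad21 differed by -1.15 between GV and growing oocytes (adjusted p = 0.0171), where 11.3% of all genes were lower, and this too was lost without the ERCC factor (adjusted p = 0.0637), without WT growing replicate 2 (0.0518), without WT GV replicate 1 (0.0631) and without Zar1/2-null growing replicate 2 (0.0655).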

How the results depend on the processing

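Of 1481 values under alternatives, over 80 results, 1244 were labelled as unchanged. For a gene or ratio this meant the same direction and side of the threshold, and for a count of members an equal or nearby count. Many of these values came from fits that left out a library outside the compared groups. The cause of the other changes was not tested. Without the ERCC factor, members lower numbered 0 in growing oocytes, 1 at GV, 0 in WT GV against growing and 0 for the GV minus growing difference, members higher at MII 0, and members lower over 3-fold at GV 0. Median scaling gave 1, 1, 0, 0, 0 and 0. In the same order for the limma comparisons, 12.3%, 13.5%, 3.23%, 3.72% and 24.6% of all genes passed without the factor. After median scaling these shares were 12.8%, 9.32%, 2.64%, 1.67% and 23.6%. Signs turned without the factor for Smc1b (0.0331) and Espl1 (0.0919) in growing oocytes, and at GV for Stag3 (0.0638, 0.0658 after median scaling), Smc1a (0.24, 0.35), Sgol1 (0.26, 0.38) and Pttg1 (0.0667, 0.21). Median scaling turned Espl1 at MII (-0.0619). From WT growing to GV, Smc1a (0.20, 0.15), Smc3 (0.12, 0.0817), Sgol2 (0.22, 0.17) and Pttg1 (0.15, 0.11) turned. From WT GV to MII, 6 were higher and 2 lower without the factor and 7 and 0 after median scaling, with Rad21 at 1.09 and 1.98, Smc1b at 0.57 and 1.38, Smc3 at 0.87 and 1.78, Sgol1 at 0.49 and 1.37, Sgol2 at 1.11 and 1.98, Espl1 at 0.29 and 1.10, Pttg1 at 1.21 and 2.16, and Smc1a at 0.37 after median scaling. In the genotype difference of the GV to MII change, 0 were higher and 2 lower without the factor, and 0 and 4 after median scaling, with Stag3 at -0.16 under both, Smc1b at -0.72 and -0.95, Smc3 at -0.36 and -0.62, Sgol1 at -0.65 and -0.88, Sgol2 at -0.36 and -0.63, Pttg1 at -0.48 and -0.74, and Smc1a at -0.0050 after median scaling.

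With no filter, 1 member was lower in growing oocytes, beside 3086 of 18932 genes, and 0 were higher at MII, beside 2196. In the GV to MII difference 1 was higher, beside 3424 genes. Fits of the compared groups alone gave 1, 0 and 1, beside 2256, 2929 and 3785 of 11502 genes. They left 1 lower in WT GV against growing (1952 genes) and 0 in the GV minus growing difference (411 genes). A pseudocount of 0.1 FPKM left 1 lower in WT GV against growing, beside 2167 of 11502 genes. It put Smc1b at -0.067 in the GV to MII difference. Adding 1 FPKM to both terms put the Stag3 ratio at 0.12. Over the 12 fits without a library, members lower ran from 0 to 3 in growing oocytes, 1 to 4 at MII and 1 to 3 in WT GV against growing, and members higher at MII from 0 to 1. Over the 4 ratios of GV means without a library, members lower over 3-fold ran from 0 to 1. In the GV to MII difference members higher ran from 1 to 2 and lower from 0 to 1, and in the GV minus growing difference lower from 0 to 1. Values that crossed 0 were Stag3 in growing oocytes (-0.0653 to 0.21), Sgol1 at GV (-0.40 to 0.053), Rad21 (-0.0862 to 0.13), Sgol2 (-0.32 to 0.021) and Espl1 (-0.0332 to 0.20) in WT GV against growing, and Stag3 (-0.0153 to 0.13), Smc1b (-0.0721 to 0.14) and Sgol1 (-0.19 to 0.26) in the GV to MII difference. The log2 ratio differences ran from -0.75 to -0.56 for Smc1b to Smc1a, -0.42 to 0.0396 for Stag3 to Stag1 and Stag2, and -0.52 to -0.34 for Sgol2 to Sgol1. Deviations of libraries with equal replicate numbers correlated weakly (4 of 15 pairs of groups over 0.1, from -0.117 to 0.163). A correlation across genes hardly responds to an offset shared by all genes. The spike-in reference may differ between replicate numbers, so this does not show that the libraries are unpaired. The main fit had no replicate block. With a block 1 member was higher in the GV to MII difference, beside 4069 of 11502 genes. At GV 6 members were lower with the block, beside 4924 genes.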
